A study of Mus musculus with 6 samples.

Results

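The genes described here encode 10 receptor chains through which endothelial cells (ECs) of the thymus can respond to cytokines, namely Il6st, Lifr, Osmr, Il1r1, Il4ra, Il13ra1, Ifngr1, Ifngr2, Ifnar1 and Ifnar2. They were taken by gene symbol, and each of the 10 matched 1 row among the 24457 genes on chromosomes. All 10 were among the 11717 genes that passed a filter on low values (1 FPKM or more in 2 or more libraries). RNA was sequenced from 3 subsets of thymic ECs in 2 libraries each, 6 in all. The subsets were Ly6C+Selp- ECs (type I), Ly6C+Selp+ ECs (type II) and Ly6C-Selp+ ECs (type III), the last of which the study names thymic portal ECs. All came from untreated wild-type female C57BL/6 mice of 4 to 6 weeks, and all were sorted as CD31+CD45-EpCAM- cells before the split by Ly6C and P-selectin. The labels do not say whether the 2 libraries of a subset came from separate mice or sorts, so the p-values measure the spread between these libraries, which may be technical.

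Cytokine receptors work as assemblies of chains. gp130, encoded by Il6st, is the signalling chain that receptors for IL-6, IL-11, LIF and oncostatin M have in common. It pairs with the LIF receptor chain (Lifr) or the oncostatin M receptor chain (Osmr), and Janus kinases bound to the chains then activate STAT proteins, above all STAT3. IL-1 acts through Il1r1 and its accessory chain Il1rap, IL-4 and IL-13 through Il4ra with Il13ra1 or Il2rg, interferon gamma through Ifngr1 with Ifngr2, and type I interferons through Ifnar1 with Ifnar2. In vessels, these cytokines are known to raise adhesion molecules and chemokines that recruit leukocytes.

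Expression is given as FPKM, the number of sequenced fragments of a gene relative to the length of its transcript and to the size of the library, so that levels of different genes can be set side by side. Differences between subsets are log2 fold changes of FPKM + 1, which understate the change of low genes, each with its standard error (SE) and with limma's p adjusted by the Benjamini-Hochberg method over all 11717 genes and a threshold of 0.05. The tables give no counts. The fragments read back from the deposited 95% intervals, as if these held counting error alone, ran from 1452448 to 2423128 per library and from 74 to 10408 behind a single receptor value. Selp was at 5.20 and 7.87 FPKM in type I ECs and between 313 and 657 in the 4 Selp+ libraries, and Ly6c1 was at 59.7 and 99.6 in type III ECs and at 351 or more elsewhere. Both genes thus followed the sort. Ly6c2, also listed as a sort gene, was low at 0.45 to 4.80 FPKM and did not follow it. The 9 endothelial markers summed to 2260 to 2980 FPKM, with Pecam1 at 496 to 867, but they were not even across subsets. From type I to type III ECs 1 was called higher (Eng) and 2 lower, Cldn5 (410 and 364 against 35.4 and 23.4 FPKM, limma adjusted p = 0.00025) and Kdr (205 and 173 against 63.4 and 70.2, limma adjusted p = 0.0079). Of the 9 markers 5 were wholly lower and 3 wholly higher, against 17.1% and 20.7% of all tested genes. RNA of other cells was also present. The 7 macrophage and dendritic markers summed to 47.0 and 355 FPKM in type I ECs, 48.0 and 133 in type II ECs and 91.5 and 550 in type III ECs, the lower library first and replicate 1 the higher each time. The 11 thymocyte markers summed to 31.9 and 119, 49.6 and 80.4, and 94.9 and 210 in the same order, and the 9 mesenchymal and mural markers to 254 and 582, 410 and 678, and 198 and 235. The 3 lymphatic markers summed to at most 5.17 in Ly6C+ libraries and to 6.19 and 20.6 in type III ECs, with Lyve1 at 0 in both type I libraries. The 7 thymic epithelial markers stayed between 14.2 and 50, and the 3 B cell markers between 0.24 and 10.

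The clearest differences lay in the gp130 family. Il6st and Lifr were several fold higher in both Selp+ subsets than in type I ECs, whereas for Osmr, the third chain of the family, no difference was detected. Il6st had an FPKM of 118 and 77.5 in the type I libraries, 399 and 388 in the type II libraries and 543 and 527 in the type III libraries. Every Selp+ library was thus far above both type I libraries, and the gap between subsets was larger than the gap between replicates. The mean rose 5.49-fold between type I ECs (97.5 ± 28.4, SD, n = 2) and type III ECs (535 ± 11.4, SD, n = 2), which was 2.48 in log2 units (limma, SE 0.25, adjusted p = 0.00094). It rose 4.03-fold to type II ECs (393 ± 8.02, SD, n = 2), a log2 fold change of 2.03 (limma, SE 0.25, adjusted p = 0.014). Il6st ranked 401 of 11717 genes by level in type I ECs and 64 in type III ECs.

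Lifr, which binds LIF and signals with gp130, followed the same pattern at a lower level. Its FPKM was 22.2 and 19.1 in type I ECs, 64.3 and 82.7 in type II ECs and 78.2 and 78.0 in type III ECs. All 4 Selp+ libraries lay above both type I libraries, and the Selp+ subsets overlapped with each other. The mean rose 3.79-fold from type I to type III ECs, a log2 fold change of 1.88 (limma, SE 0.24, adjusted p = 0.003), and 3.56-fold to type II ECs, 1.78 on the log2 scale (limma, SE 0.24, adjusted p = 0.021). Both comparisons use the same type I libraries. Osmr, which binds oncostatin M, had 40.0 and 28.7 in type I ECs, 43.8 and 39.9 in type II ECs and 43.8 and 33.0 in type III ECs. The libraries of all 3 subsets overlapped. The log2 fold change of Osmr from type I to type III ECs was 0.16, with a 95% interval from -0.45 to 0.77 (limma adjusted p = 0.88).

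In all, 2 of the 10 genes were higher in type III than in type I ECs past the threshold and 0 were lower, where 2.09% of all tested genes were called higher and 2.05% lower, 4.14% in all. The same 2 genes, Il6st and Lifr, were higher in type II ECs, where 0.324% of tested genes were called higher and 0.0683% lower, 0.393% in all. The median log2 fold change of the 10 genes was 0.32 in the first comparison and 0.29 in the second, against 0.08 and -0.06 over all tested genes. Because the 10 genes were chosen with earlier results of these data known, these shares and medians only describe them. Without the libraries of highest macrophage content, replicate 1 of type I and of type III ECs, 4 libraries remained. The log2 fold changes to type III ECs were then 2.75 for Il6st and 1.98 for Lifr, and those to type II ECs 2.33 and 1.88. With 1 library left in type I and in type III ECs, the spread rested on type II ECs alone. Whether the 10 genes passed in this fit therefore cannot show if the differences depend on macrophage RNA. Between type I and type II ECs, the call of Lifr depended on nearly all libraries and that of Il6st on both type II libraries. Leaving out either type II library gave 2.01 and 2.05 for Il6st (limma adjusted p = 0.12 and 0.14), and of 6 fits that each left out 1 library Lifr passed in 1, the one without type I replicate 1 (limma adjusted p = 0.043). Markers of other cells also moved between these subsets. From type I to type II ECs 5 of the 9 mesenchymal markers were wholly higher and 0 wholly lower (median log2 fold change 1.00), though 0 passed. From type I to type III ECs the sums of B cell and lymphatic markers were wholly higher and the mesenchymal sums wholly lower. Of 11 thymocyte markers 11 had a positive log2 fold change (median 0.96). Rgs5 took a large part of the mesenchymal sums in type I ECs, at 346 and 114 FPKM against 48.6 and 45.4 in type III ECs. Of the 9 mesenchymal markers 3 were wholly lower and 1 wholly higher, against 17.1% and 20.7% of all tested genes. Only Pdgfrb passed, lower in type III ECs (limma adjusted p = 0.013), and 4 had a positive log2 fold change. The macrophage and thymocyte sums overlapped. The part of these cells in the differences was not tested.

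**Figure D1:**
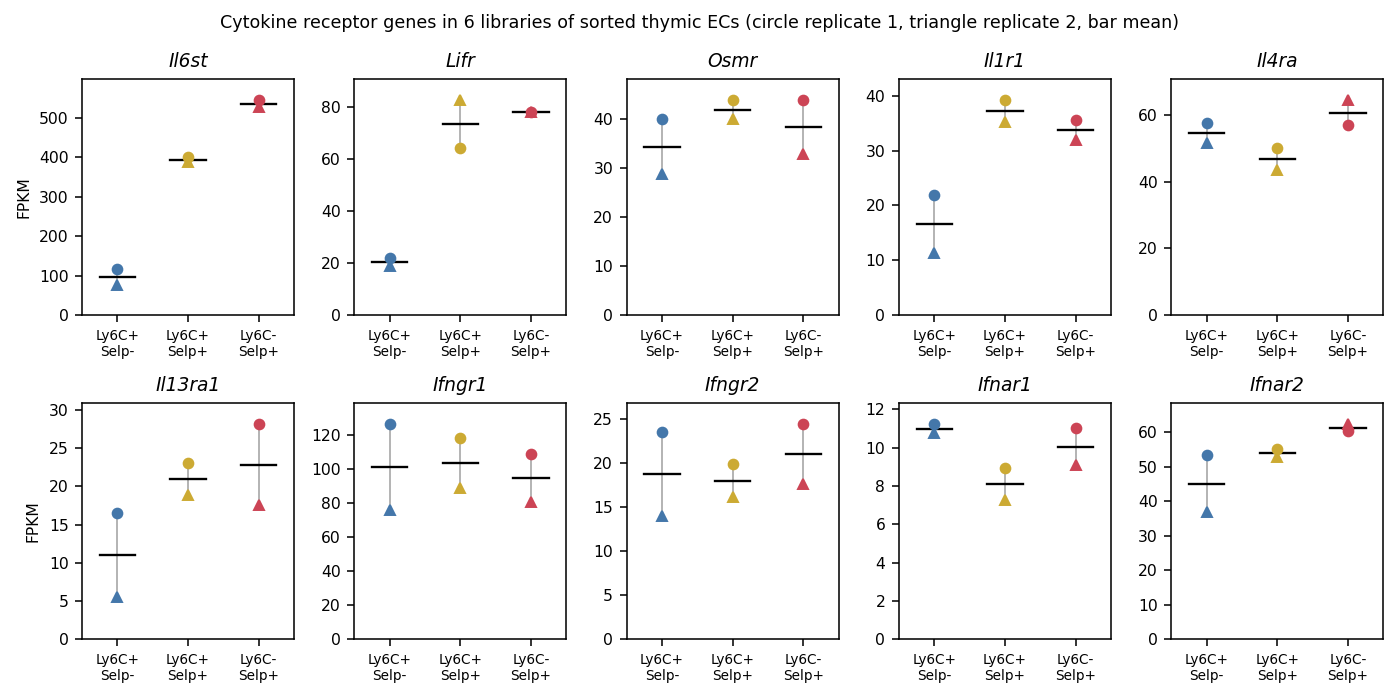
FPKM of the 10 receptor genes in each of the 6 libraries, 1 panel per gene with its own axis from 0, by EC subset; circles are replicate 1, triangles replicate 2 and bars the mean of 2. For Il6st and Lifr all 4 Selp+ libraries sit above both type I libraries, while the interferon gamma receptor genes and Osmr overlap across the 3 subsets.

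The chromosomal regions of these genes set Lifr and Osmr side by side. On mm9, Il6st lies on the plus strand of chromosome 13 from 113254278 to 113297068, Lifr on the plus strand of chromosome 15 from 7079572 to 7147489, and Osmr on the minus strand of chromosome 15 from 6763577 to 6824313. Osmr and Lifr are 255258 bases apart with 0 annotated protein-coding genes between them, yet only Lifr passed the threshold. Ifnar2, Ifnar1 and Ifngr2 also neighbour each other on chromosome 16, where Il10rb separates Ifnar2 from Ifnar1. None of the 10 genes overlapped another gene in GENCODE mouse release M1. The sequences before the start sites are shown for Il6st and Lifr, which rose together, and for Osmr, the neighbour for which no difference was detected. Each is the 250 bases before a RefSeq start on build GRCm38.p6 (coordinates not comparable with mm9), 5′ to 3′ on the gene's strand, and for Lifr the upstream of 2 starts. Capitals mark, on either strand, GGGCGG (a GC box), TTCNNNGAA (a STAT motif) and a loose NF-kB motif (GGG, any 5 bases, then CC).
Il6st promoter, chr13:112463820-112464069, plus strand: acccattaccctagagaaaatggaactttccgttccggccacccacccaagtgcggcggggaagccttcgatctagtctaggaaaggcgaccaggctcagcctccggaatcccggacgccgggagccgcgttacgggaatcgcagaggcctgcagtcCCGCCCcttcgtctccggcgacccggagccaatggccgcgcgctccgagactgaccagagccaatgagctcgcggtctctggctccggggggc
Lifr promoter, chr15:7129322-7129571, plus strand: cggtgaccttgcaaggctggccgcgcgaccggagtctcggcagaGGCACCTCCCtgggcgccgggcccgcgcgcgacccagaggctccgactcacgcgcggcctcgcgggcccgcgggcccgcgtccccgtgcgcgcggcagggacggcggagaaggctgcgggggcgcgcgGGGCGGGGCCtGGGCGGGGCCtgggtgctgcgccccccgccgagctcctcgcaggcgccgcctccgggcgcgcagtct
Osmr promoter, chr15:6874314-6874563, minus strand: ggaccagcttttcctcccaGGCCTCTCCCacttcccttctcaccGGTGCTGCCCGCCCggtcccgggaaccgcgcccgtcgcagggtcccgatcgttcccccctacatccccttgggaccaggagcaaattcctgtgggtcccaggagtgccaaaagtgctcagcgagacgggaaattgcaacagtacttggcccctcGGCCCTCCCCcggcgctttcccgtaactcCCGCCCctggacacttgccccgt

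No TTCNNNGAA lay in the 300 bases around the starts of Il6st, Lifr or Osmr. In windows of this size, from 250 bases before to 50 after the start, GGGCGG occurred on either strand in 10 of the 12 promoters that RefSeq lists for the 10 genes and in 35.7% of all 32851. The NF-kB motif occurred in 10 of 12 and in 50.8% of all, and TTCNNNGAA in 2 of 12, those of Ifnar1 and Ifnar2, and in 8.3% of all. The GC box and the NF-kB motif can share bases. Neither TATAAA, present in 13.6% of all promoters, nor an interferon-response motif (GAAA, any 2 bases, then GAAA) present in 3.44%, was found in any of the 12. These are matches of letters in a window. The 12 promoters had a GC content of 49.3% to 81.3%, and the background was not matched for GC content or expression. The promoter of Osmr, with 2 GC boxes and 3 NF-kB motifs, held as many of each as the first Lifr promoter.

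Il1r1, the signalling receptor of IL-1, was higher in both Selp+ subsets on the deposited scale without passing the threshold. Its FPKM was 21.8 and 11.4 in type I ECs, 39.2 and 35.2 in type II ECs and 35.6 and 31.9 in type III ECs. Both type I libraries lay below the 4 others, and the Selp+ subsets overlapped. The log2 fold change of Il1r1 from type I to type III ECs was 1.04 (limma, SE 0.32, adjusted p = 0.13), and to type II ECs it was 1.18 (limma, SE 0.32, adjusted p = 0.24). The study, which used the program Cuffdiff, lists Il1r1 among its differential genes between type I and type III ECs. That list also holds Il6st and Lifr. Here the call of Il1r1 depended on the scaling between libraries. With TPM, median-of-ratios or quantile scaling, the adjusted p in limma was 0.048, 0.036 and 0.042 in the first comparison and 0.045, 0.047 and 0.043 in the second. The accessory chain Il1rap was low everywhere, at 0.963 to 2.97 FPKM.

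For the receptor chains of IL-4 and IL-13, the values differed in their spread. Il4ra, the chain common to both cytokines, had an FPKM of 57.7 and 51.6 in type I ECs, 50.2 and 43.5 in type II ECs and 56.9 and 64.4 in type III ECs. The range of type III ECs overlapped that of type I ECs, and type II ECs lay below both. None of its 3 differences passed, and the log2 fold change between type I and type III ECs was 0.15, with a 95% interval from -0.38 to 0.67 (limma adjusted p = 0.87). Il13ra1, which binds IL-13, had 16.5 and 5.49 in type I ECs, 23.0 and 18.8 in type II ECs and 28.1 and 17.5 in type III ECs. The Selp+ libraries were above both type I libraries, but the 2 type I values differed more from each other than the lowest Selp+ value did from the higher of them. The log2 fold change of Il13ra1 from type I to type III ECs was 1.12 (limma, SE 0.45, adjusted p = 0.29), 0.40 without type I replicate 2 and 1.84 without type I replicate 1 (limma adjusted p = 0.81 and 0.043). The study's Cuffdiff list of differential genes between type I and type III ECs also holds Il13ra1. Il13ra1 was higher in replicate 1 than in replicate 2 of every subset, as were the macrophage and thymocyte sums. The summed FPKM of all genes was also higher in replicate 1, at 299303 and 221458 in type I ECs. It was 261233 and 229036 in type II ECs and 300932 and 272220 in type III ECs. Il6st, Il1r1, Ifngr1, Ifngr2, Ifnar1 and Osmr were likewise higher in replicate 1 of every subset. The part of macrophages, thymocytes or library totals in the Il13ra1 values was not tested. Fewer cells that express a gene and less RNA per cell cannot be told apart in libraries of sorted bulk cells.

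No difference between subsets passed the threshold for the 4 interferon receptor chains. Ifngr1, the ligand-binding chain for interferon gamma, was abundant in each subset, with an FPKM of 126 and 76.0 in type I ECs, 119 and 89.2 in type II ECs and 109 and 80.7 in type III ECs. Ifngr2, its partner, had 23.5 and 13.9, then 19.9 and 16.1, then 24.4 and 17.6. The subsets overlapped for both genes, and replicate 1 was the higher library each time. The log2 fold change from type I to type III ECs was -0.06 for Ifngr1, with a 95% interval from -0.76 to 0.63, and 0.18 for Ifngr2, with an interval from -0.54 to 0.91 (limma adjusted p = 0.97 and 0.89).

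Ifnar1, a chain of the type I interferon receptor, was the lowest of the 10 genes by its mean, level with Il13ra1 in type I ECs, with an FPKM of 11.2 and 10.7 in type I ECs, 8.92 and 7.29 in type II ECs and 11 and 9.11 in type III ECs. Its partner Ifnar2 had 53.3 and 36.9, 55.2 and 52.8, and 60.5 and 62.2. For Ifnar2 both type III libraries were above all others, while Ifnar1 was lowest in type II ECs. The log2 fold change from type I to type III ECs was 0.46 for Ifnar2, with a 95% interval from -0.11 to 1.03, and -0.12 for Ifnar1, with an interval from -0.75 to 0.51 (limma adjusted p = 0.51 and 0.92).

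Without any model, the libraries of type III ECs lay wholly above those of type I ECs for 5 of the 10 genes, namely Il6st, Lifr, Il1r1, Il13ra1 and Ifnar2, and wholly below for 0. Of all tested genes 20.7% were wholly above and 17.1% wholly below, 37.9% in all. type II ECs were wholly above type I ECs for 4, the same genes without Ifnar2, and wholly below for 2, Il4ra and Ifnar1. Here 13% of tested genes were wholly above and 20.6% wholly below, 33.6% in all. The exact permutation test of 2 against 2 libraries cannot give a p below 0.33 for such a separation.

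**Figure D2:**
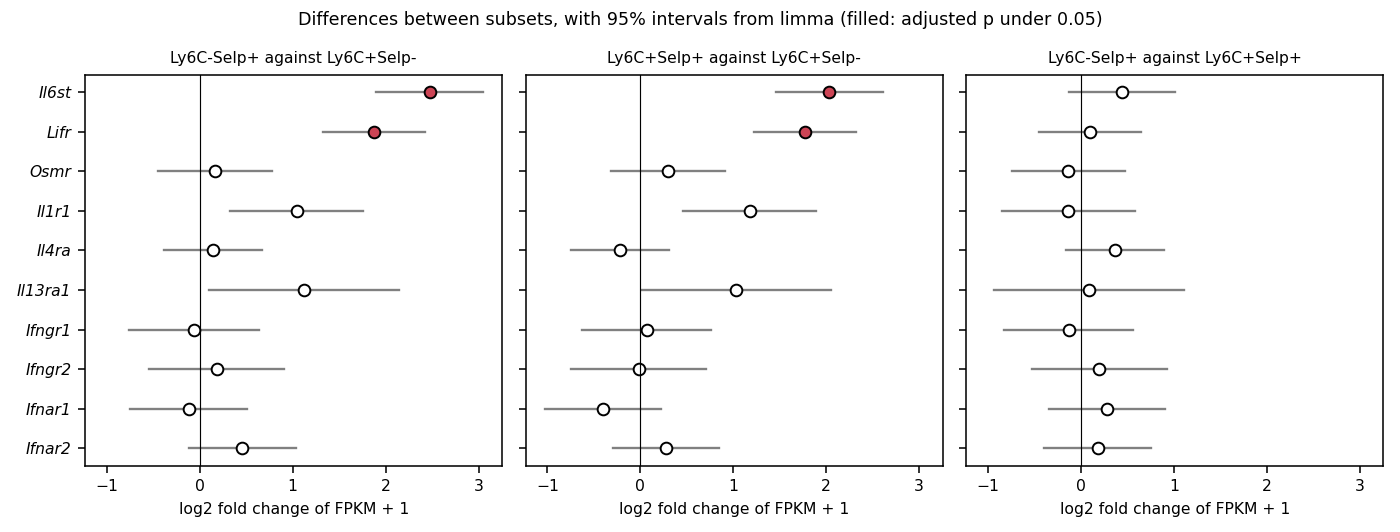
Log2 fold change of FPKM + 1 for each of the 10 genes (x axis) in the 3 comparisons between subsets; points are limma estimates, lines their 95% intervals, and filled points have an adjusted p under 0.05. Il6st at 2.48 and 2.03 and Lifr at 1.88 and 1.78 are the filled points, and the third panel has 0.

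Between the 2 Selp+ subsets, 0 of the 10 genes passed limma's threshold in either direction, and 0 had an unadjusted p under 0.05. Of all tested genes 0.0939% were called higher and 0.128% lower in type III ECs, 0.222% in all. Il6st came closest, with both type III libraries above both type II libraries and a log2 fold change of 0.44 (limma, SE 0.25, adjusted p = 0.63). The median of all tested genes was itself 0.14 in this comparison, and with median-of-ratios scaling, which brought that median to 0.01, the log2 fold change of Il6st was 0.29. Il4ra, Ifnar1 and Ifnar2 were also wholly above, 4 genes with Il6st, where 27.7% of tested genes were wholly above and 13.3% wholly below, 41% in all. Their log2 fold changes were 0.37, 0.28 and 0.18, and that of Ifnar2 was -0.04 with TPM scaling. For Lifr the log2 fold change was 0.10 with a 95% interval from -0.45 to 0.65, and it was -0.05 under median-of-ratios scaling. On the log2 scale Lifr in type II ECs stood at 0.95 of the way from type I to type III ECs and Il6st at 0.82.

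The order of the 10 genes by level differed between subsets. In type I ECs, Ifngr1 (101 ± 35.5, SD, n = 2) and Il6st (97.5 ± 28.4, SD, n = 2) came first with overlapping libraries, followed by Il4ra, Ifnar2 and Osmr, of which each neighbouring pair overlapped. Lifr came sixth and, like the genes after it, overlapped with the next. In type III ECs Il6st stood clear at 535 ± 11.4 (SD, n = 2), followed by Ifngr1 at 94.9 ± 20.1 (SD, n = 2) and Lifr at 78.1 ± 0.08 (SD, n = 2), with no overlap between these neighbours. Ifnar2 and Il4ra then overlapped, as did Osmr and Il1r1, and Il13ra1 and Ifngr2. The order in type II ECs began with the same 3 genes, Il6st, Ifngr1 and Lifr, again without overlap. Of the summed FPKM of the 10 genes, Il6st took 24.0% and 23.4% in the type I libraries, 48.5% and 50.1% in the type II libraries and 54.8% and 57.2% in the type III libraries.

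The balance between chains of 1 receptor was compared as the ratio of their FPKM within a library, which does not depend on the scaling between libraries. Per unit of transcript length, Osmr exceeded Lifr in type I ECs, with an Osmr to Lifr ratio of 1.8 and 1.51. In the Selp+ subsets Lifr exceeded Osmr, with ratios of 0.682 and 0.483 in type II ECs and 0.561 and 0.423 in type III ECs. The Osmr to Il6st ratio was 0.340 and 0.371 in type I ECs and 0.0807 and 0.0625 in type III ECs. The Lifr to Il6st ratio was 0.189 and 0.246 in type I ECs and 0.144 and 0.148 in type III ECs, so that Il6st differed more than its partner in both libraries. The 3 ratios did not overlap between type I and type III ECs, with log2 differences of -1.76, -2.32 and -0.56 and pooled SDs of 0.24, 0.19 and 0.19 (n = 2 per subset, two-sided exact permutation test, p = 0.33 each, the smallest that 2 against 2 can give, and 0.39 after adjustment over 7 ratios).

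Among the other receptors, the Ifnar2 to Ifnar1 ratio was 4.75 and 3.44 in type I ECs, 6.18 and 7.24 in type II ECs and 5.49 and 6.83 in type III ECs, lowest in the type I libraries. The Ifngr2 to Ifngr1 ratio was 0.186 and 0.183 in type I ECs, 0.167 and 0.181 in type II ECs and 0.223 and 0.218 in type III ECs. It was wholly higher in type III than in type I ECs, by 0.25 in log2 units (pooled SD 0.02, n = 2 per subset, exact permutation test, p = 0.33, the smallest possible). The Ifnar2 to Ifnar1 ratio was also wholly higher, by 0.60 (pooled SD 0.28), with the same p by the exact permutation test. The Il13ra1 to Il4ra ratio was 0.287 and 0.106 in type I ECs and 0.494 and 0.272 in type III ECs, which overlapped (exact permutation test, p = 0.67). Il1rap was at most 0.165 of Il1r1 in every library, and its values rested on 9 to 19 fragments each. This ratio was 0.0945 and 0.165 in type I ECs and 0.0834 and 0.0302 in type III ECs. It was narrowly but wholly lower in type III ECs, by -1.32 in log2 units (pooled SD 0.84, exact permutation test, p = 0.33).

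**Figure D3:**
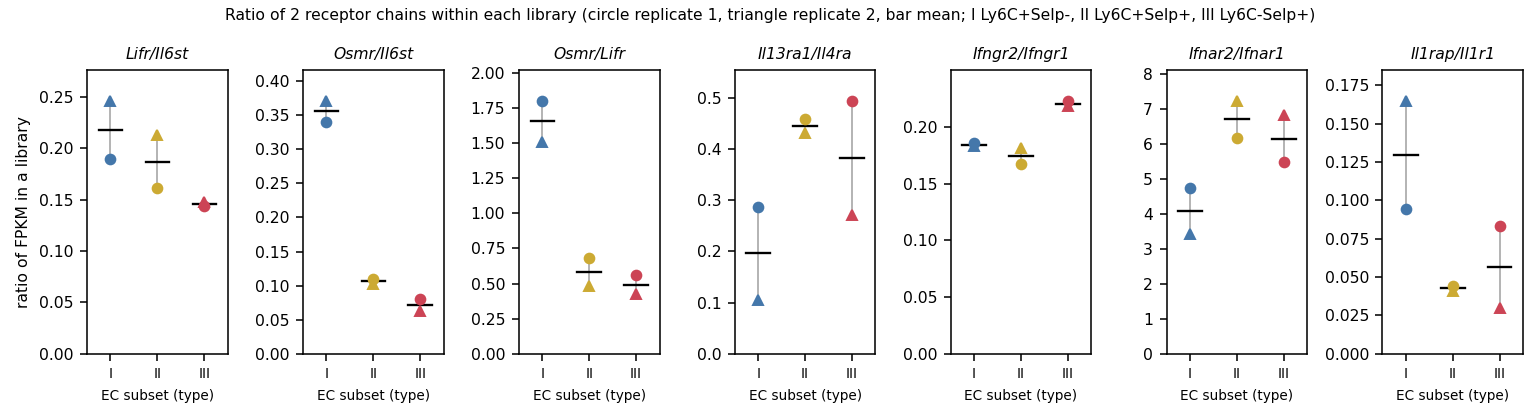
Ratio of the FPKM of 2 receptor chains within each library (y axis, from 0), 1 panel per pair, by EC subset; circles are replicate 1, triangles replicate 2 and bars the mean. The Osmr to Lifr ratio is above 1.5 in both type I libraries and below 0.7 in the 4 Selp+ libraries, and the Ifngr2 to Ifngr1 ratio is 0.223 and 0.218 in type III ECs, above all other libraries.

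The genes whose profile over the 6 libraries lay nearest to that of Il6st, by the distance between log2 values centred on each gene's mean and among 6658 genes with a mean FPKM of at least 5, were 2200002D01Rik, Enpp2, Kcnj15, Gpr1 and Myrip. Enpp2, which encodes autotaxin, had mean FPKM of 62.1, 254 and 368 from type I through type II to type III ECs (r = 0.99 with Il6st over 6 libraries). Nearest to Lifr were Tll1, Nov, Bend4, Tnfrsf11a and Csf2rb2. Tnfrsf11a, the receptor for RANKL, had means of 2.74, 9.93 and 12.7, and Csf2rb2, a close paralogue of Csf2rb whose reads may not be told apart from it, had 56.7, 151 and 180. Nearest to Il1r1 were Antxr1, Cd59a, Slc1a5, Map3k8 and Cxcl10. Cd59a, a complement regulator, had means of 5.41, 13.9 and 12.9, and Cxcl10, a chemokine, had 261, 448 and 413. These likenesses rest on the same 6 libraries and mainly on the step between type I and Selp+ ECs.

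Further cytokine receptors were taken from 5 lists of 44 genes, of which 28 passed the filter on low values. Between type I and type III ECs 3 of the 28 rose and 0 fell, namely Il27ra, Lepr and Il2rg, against the same 2.09% and 2.05% of all tested genes. The median log2 fold change of the 28 receptors was 0.67, against 0.08 over all tested genes. It was 0.80 for the tested macrophage and dendritic markers and 0.96 for the thymocyte markers. The receptor lists and the macrophage list share a gene. The part of other cells in the median of the receptors was not tested. Il27ra, the chain that pairs with gp130 for IL-27, had an FPKM of 3.11 and 3.22 in type I ECs, 7.02 and 7.66 in type II ECs and 16.9 and 18.4 in type III ECs. The 3 subsets did not overlap, and the log2 fold change to type III ECs was 2.16 (limma, SE 0.28, adjusted p = 0.0028). The other partners of gp130 were low. Il11ra1 had 4.09 to 13.4 FPKM and Il6ra, the IL-6 binding chain, 1.2 to 5.24, with neither past the threshold.

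Il2rg, the gamma chain that joins Il4ra in the IL-4 receptor of blood cells, had 61.9 and 46.5 in type I ECs, 92.3 and 98.9 in type II ECs and 148 and 140 in type III ECs. The subsets did not overlap, and the log2 fold change to type III ECs was 1.41 (limma, SE 0.24, adjusted p = 0.011), which no longer passed without either type III library (limma adjusted p = 0.10 and 0.077). Lepr, the leptin receptor, had 5.07 and 2.81, then 11.1 and 12.7, then 15.8 and 12.8, a log2 fold change of 1.66 to type III ECs (limma, SE 0.32, adjusted p = 0.021). Lepr lost its call without type I replicate 2 or without either type III library (limma adjusted p = 0.11, 0.16 and 0.077). Thymocytes also express Il2rg and Il27ra. The thymocyte sums were 210 and 94.9 FPKM in type III ECs and 119 and 31.9 in type I ECs, which overlapped. The part of thymocytes in these values was not tested.

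Other abundant receptors did not pass. Csf2rb, the common beta chain, had 64.2 to 151 FPKM, with a log2 fold change of 0.88 to type III ECs (limma adjusted p = 0.11), and Il3ra, the alpha chain for IL-3, had 18.9 to 42.3, with 0.86 (limma adjusted p = 0.13). Crlf2, a receptor chain for TSLP, had 13.6 to 43.4, and Il10rb, common to receptors of the IL-10 family, 14.9 to 30.7. Sigirr, a dampening relative of the IL-1 receptor, had 15.5 and 11.8 in type I ECs and 9.48 and 7.81 in type III ECs (limma adjusted p = 0.41), and Il20rb had 2.77 to 7.17. In the comparisons of type II ECs with the 2 other subsets, 0 of the 28 receptors passed limma's threshold.

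Few of the ligands and signalling genes passed the threshold. Of 18 cytokine ligands 8 passed the filter and 0 the threshold, where 4.14% of all tested genes were called between type I and type III ECs, a share at which a list of this size need hold no call. Another 5, among them Il4 and Ifng, were listed at 0 in all libraries. Il6 was by far the highest, with an FPKM of 240 and 134 in type I ECs, 220 and 172 in type II ECs and 149 and 112 in type III ECs. The type III range overlapped that of type I ECs (log2 fold change -0.47, limma adjusted p = 0.62). The next ligand, Clcf1, was at 1.04 to 5.27. Of 11 Janus kinase and STAT genes tested 0 passed, against the same 4.14%. Jak1, the kinase used by most of these receptors, had 57.9 and 44.4, 69.1 and 78.2, and 102 and 86.8, with a log2 fold change of 0.88 to type III ECs (limma adjusted p = 0.098). Stat3 was at 51.8 to 66.0 in all 6 libraries. Type I ECs overlapped with both other subsets, and type III ECs were wholly above type II ECs without passing (limma adjusted p = 0.82).

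Of 17 inhibitors of cytokine signalling 1 rose and 0 fell between type I and type III ECs, against 2.09% and 2.05% of all tested genes, so that the count was near the background. Socs2, which dampens growth hormone signalling, had 32.7 and 18.6, then 53.5 and 38.3, then 83.2 and 64.1, a log2 fold change of 1.52 to type III ECs (limma, SE 0.32, adjusted p = 0.032). Socs2 lost its call without type I replicate 2 or without either type III library (limma adjusted p = 0.15, 0.23 and 0.092). Socs3, the feedback inhibitor of gp130, was the highest of the 17, with 365 and 256 in type I ECs, 401 and 360 in type II ECs and 404 and 462 in type III ECs, and did not pass (log2 fold change 0.50, limma adjusted p = 0.45). Of 12 genes downstream of the IL-1 receptor 0 passed, again against 4.14%, with the adaptor Myd88 at 28.9 to 45.8 and Tab2 at 11.9 to 17.9. The study's Cuffdiff list for type I and type III ECs holds Irak2, which was lower in type III ECs without passing here (limma adjusted p = 0.21). That list also holds Il27ra, Il2rg, Lepr and Socs2, which passed here. In the 2 other comparisons 0 of the 76 receptor, ligand and signalling genes tested passed limma's threshold.

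**Figure D4:**
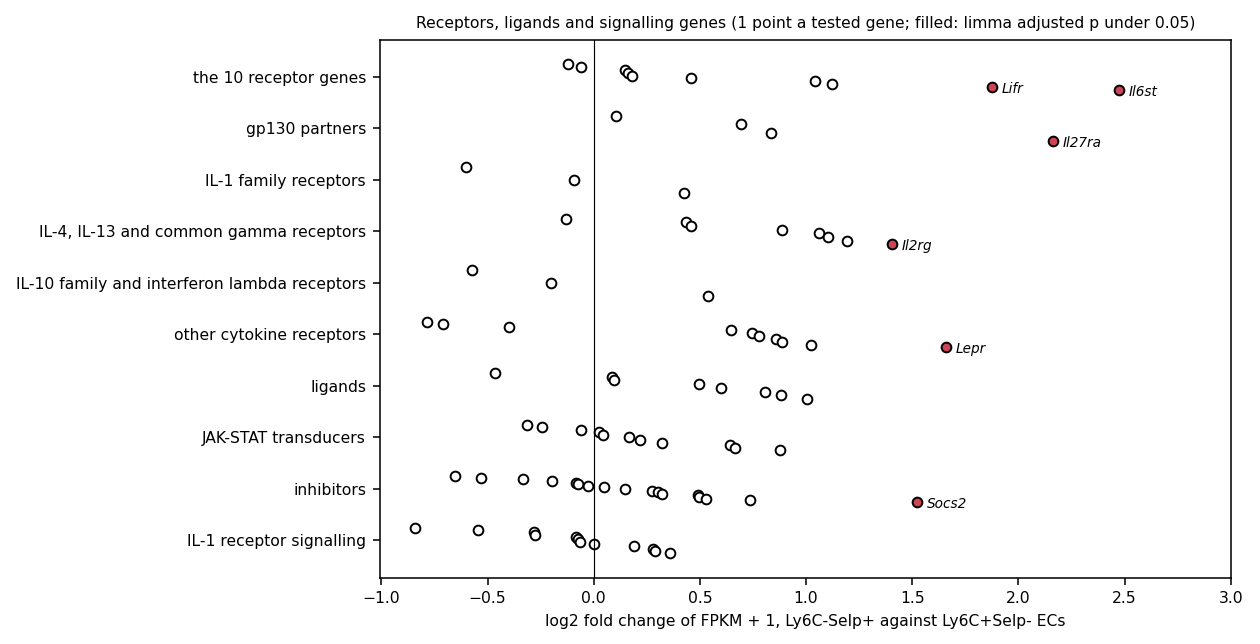
Log2 fold change of FPKM + 1 from type I to type III ECs (x axis) for the 10 receptor genes and the tested genes of 9 related lists (rows); each point is 1 gene and filled points have a limma adjusted p under 0.05. The 6 filled points, Il6st, Lifr, Il27ra, Il2rg, Lepr and Socs2, are all to the right of 0, and the ligands, Janus kinases, STATs and IL-1 signalling genes have none.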

How the data were processed

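Whole-transcriptome libraries of 3 subsets of sorted thymic ECs were sequenced in duplicate. The authors trimmed the paired-end reads, mapped them to mm9 with TopHat and computed expression per gene with Cufflinks in each library. Per the labels the tools were CASAVA 1.8, TopHat2 2.0.10, Cufflinks 2.1.1 and Cuffdiff. The gene annotation is not given in the sources used here. The deposited values are FPKM with bounds of a 95% interval, not scaled between libraries, and 95 entries of spike-ins and reporters were set aside.

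FPKM are not counts, so log2(FPKM + 1) was fitted with limma 3.58.1 in R 4.3.3 (trend on mean expression, 1 mean per subset, all 6 libraries in 1 fit). Genes reaching 1 FPKM in 2 or more libraries were tested (11717). The script was tested on simulated data. The 10 genes and all lists were chosen with earlier results of these data known. Named genes of the other lists are those past the threshold in any comparison and the 2 highest by mean FPKM. Il6ra was added after its values were seen, and Irak2 because the study lists it as differential. Alternatives were other pseudocounts, filters, scalings and variance models, the replicate number as a block, only the subsets compared, and each library left out; leaving out a pair of libraries together was added after seeing the data, as were all alternatives for genes outside the 10. Promoters came from RefSeq (GRCm38.p6), which listed all 10 genes, and positions from the files, with strand and neighbours from GENCODE mouse release M1. The deposited intervals were read as if they covered counting error only.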

Additional observations from a re-analysis of the deposited data

How the results depend on the processing

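With 2 libraries a subset the number of calls moved with most settings, and 3 fragments, the floor of detection, were worth a median of 0.32 to 0.55 FPKM. From type I to type III ECs, Il6st and Lifr passed in 16 of 17 alternatives. The exception, chosen after seeing the data, left out replicate 1 of type I and of type III ECs, so that a lone library is assumed to vary like type II ECs; it left 0 of the 10 genes past the threshold in each comparison, and 5 (type III against type I), 4 (type II against type I) and 0 (type III against type II) of all genes. Without the filter on low values, 0 of the 10 passed between type I and type II ECs (limma adjusted p = 0.11 for Il6st and 0.096 for Lifr), and all genes called in the 3 comparisons, 485, 46 and 26 in the report, were 317, 12 and 0. Without limma's trend 0 of the 10 passed between type I and type II ECs, and 15 and 10 of all genes in the second and the third comparison. Fitting only the subsets compared gave 1 of the 10, Il6st, and 29 and 7 of all genes there. With Il1r1, 3 of the 10 passed under each scaling in the first and second comparison. All genes called were 730, 102 and 127 with TPM, and in the second and the third comparison 97 and 85 with median-of-ratios and 103 and 90 with quantile scaling. Calls split 38 higher to 8 lower between type I and type II ECs, and 74 to 28, 68 to 29 and 73 to 30 under the scalings; between type II and type III ECs they split 11 to 15, and 28 to 99, 23 to 62 and 22 to 68. With the replicate number as a block, 4 of the 10 passed in the first comparison (Il1r1, limma adjusted p = 0.028, and Il13ra1, 0.047, besides Il6st and Lifr), 2 in the second and 0 in the third, and 971, 183 and 229 of all genes. Deviations of same-numbered libraries correlated at 0.199 (types I and II), 0.306 (I and III) and 0.18 (II and III), but with 2 numbers nothing in the labels says that a number marks a shared mouse or day. Leaving out 1 library gave 2 to 4 of the 10 in the first comparison (4 without type I replicate 1, which added Il1r1 and Il13ra1), 0 to 2 in the second (0 without either type II library) and 0 in the third, and 209 to 404, 12 to 33 and 2 to 14 of all genes. Directions turned only where no call was made. With TPM, Il4ra was at -0.00387 (type III against type I), Ifngr2 at 0.0535 (type II against type I), and Il13ra1, Ifngr2, Ifnar2 and Lifr at -0.128, -0.016, -0.0411 and -0.126 (type III against type II). With median-of-ratios, Ifngr2 was at 0.0379 in the second comparison, and Il13ra1 and Lifr at -0.0546 and -0.0497 in the third, and with quantile scaling at 0.0565, -0.0862 and -0.0914. Without the pair of replicates 1, Ifngr1 was at 0.085 in the first comparison, Ifngr2 at 0.34 in the second, and Il13ra1 and Ifngr2 at -0.237 and -0.025 in the third. Without 1 library, the first comparison ranged from -0.424 to 0.30 for Ifngr1, -0.177 to 0.539 for Ifngr2, -0.244 to 0.00495 for Ifnar1 and -0.0703 to 0.393 for Osmr, the second from -0.293 to 0.432 for Ifngr1 and -0.376 to 0.34 for Ifngr2, and the third from -0.347 to 0.084 for Ifngr1, -0.0813 to 0.277 for Lifr, -0.237 to 0.415 for Il13ra1, -0.025 to 0.424 for Ifngr2 and -0.334 to 0.0654 for Osmr. Lepr and Socs2 also lost their calls without the filter (limma adjusted p = 0.062 and 0.092) and Socs2 without the trend (0.072). Il27ra passed in 16 of 17 alternatives, and the 7 ratios kept their direction in all 35. For every ratio except Il13ra1 to Il4ra, type I and type III ECs did not overlap. Leaving out 1 library could therefore not turn the direction of those ratios. The cause of the changes between settings was not tested.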
